A study of Mus musculus with 6 samples.

Results

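Of the 55573 gene identifiers in an RNA-Seq count table, 9 connexin genes were examined: *Gjd2*, *Gja10* and *Gjc1*, which are used by retinal neurons, *Gja1*, *Gjb2*, *Gjb6* and *Gjc3*, which are used by glia, and *Gja4* and *Gja5*, which are used by blood vessels. The 9 genes were chosen from a family with the difference between the groups already known, so their values are given as a description and without p values. The gene lists set beside them were also chosen with earlier results of these data known. The p values printed for list genes are therefore a description too, and not an independent test. The libraries came from C57BL/6J mice. In 3 libraries (GFP) the mice had received AAV2-GFP in the vitreous, and in the other 3 (Ezh2) AAV2-Ezh2, which carries the histone methyltransferase of Polycomb repressive complex 2. In both groups the optic nerve was crushed 2 weeks later and CD90.2-positive retinal cells were sorted after another 3 days, so no uninjured and no uninjected retina entered the comparison. How many mice went into a library is not given in the sources used here, so p values measure only the spread between these libraries.

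Connexins are membrane proteins that assemble into hexameric hemichannels. Hemichannels of neighbouring cells dock to form gap junctions, through which ions and small molecules pass. In the retina, gap junctions between neurons serve as electrical synapses. Those made of connexin36, the product of *Gjd2*, couple AII amacrine cells to each other and to ON cone bipolar cells, and also join photoreceptors and some RGCs. Dopamine and nitric oxide adjust this coupling with the level of background light, largely through phosphorylation of the connexin.

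Library totals ranged from 30569933 to 35971192 counts, and a count of 0 allowed up to 3 counts, or 0.0834 to 0.0981 CPM (counts scaled to the library total). *Ezh2* mRNA levels were 28.8, 34.6 and 32.99 CPM in the GFP libraries and 78.0, 65.3 and 104.8 CPM in the Ezh2 libraries, which matched the labels in all 6. Ezh2 replicate 3 stood apart on the leading principal component (46.7% of variance), with a score of 76.6 where Ezh2 replicates 1 and 2 scored 10.7 and 10.2. The main comparison therefore follows the study in using 5 libraries, without Ezh2 replicate 3, and values with all 6 are given beside it. The labels call the cells RGCs. However, *Pou4f2*, a defining RGC transcription factor, had between 0 and 3 counts per library, and *Pou4f1* between 0 and 19. The 12 RGC markers summed to between 140.2 and 174.0 CPM, whereas 8 markers of Müller glia summed to between 23610 and 31260 CPM. Much of the RGC sum was *Thy1* (90.05 CPM in GFP), which encodes the CD90.2 used for sorting. T cell markers summed to 319.0 to 345.5 CPM in GFP. The connexin values below therefore belong to a mixture of CD90.2-positive retinal cells in which glial transcripts were abundant and T cell transcripts were present.

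The neuronal connexin *Gjd2* was the most abundant connexin in the GFP libraries and was much lower in the Ezh2 libraries. It had 862, 729 and 643 counts in the GFP libraries and 112, 183 and 114 counts in the Ezh2 libraries. Scaled to the library totals, these were 28.2, 23.0 and 20.9 CPM against 3.48, 5.22 and 3.17 CPM. All 3 Ezh2 libraries lay below all 3 GFP libraries, and the replicate that the study left out was no exception. The mean was 24.1 ± 3.74 CPM (SD, n = 3) in GFP and 4.35 ± 1.23 CPM (SD, n = 2) in the Ezh2 libraries kept, a ratio of 5.53. The fitted log2 fold change was -2.45 ± 0.17 (SE) with 5 libraries and -2.56 ± 0.21 with 6. In such bulk samples, fewer *Gjd2*-expressing cells and less *Gjd2* mRNA per cell cannot be told apart.

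**Figure D1:**
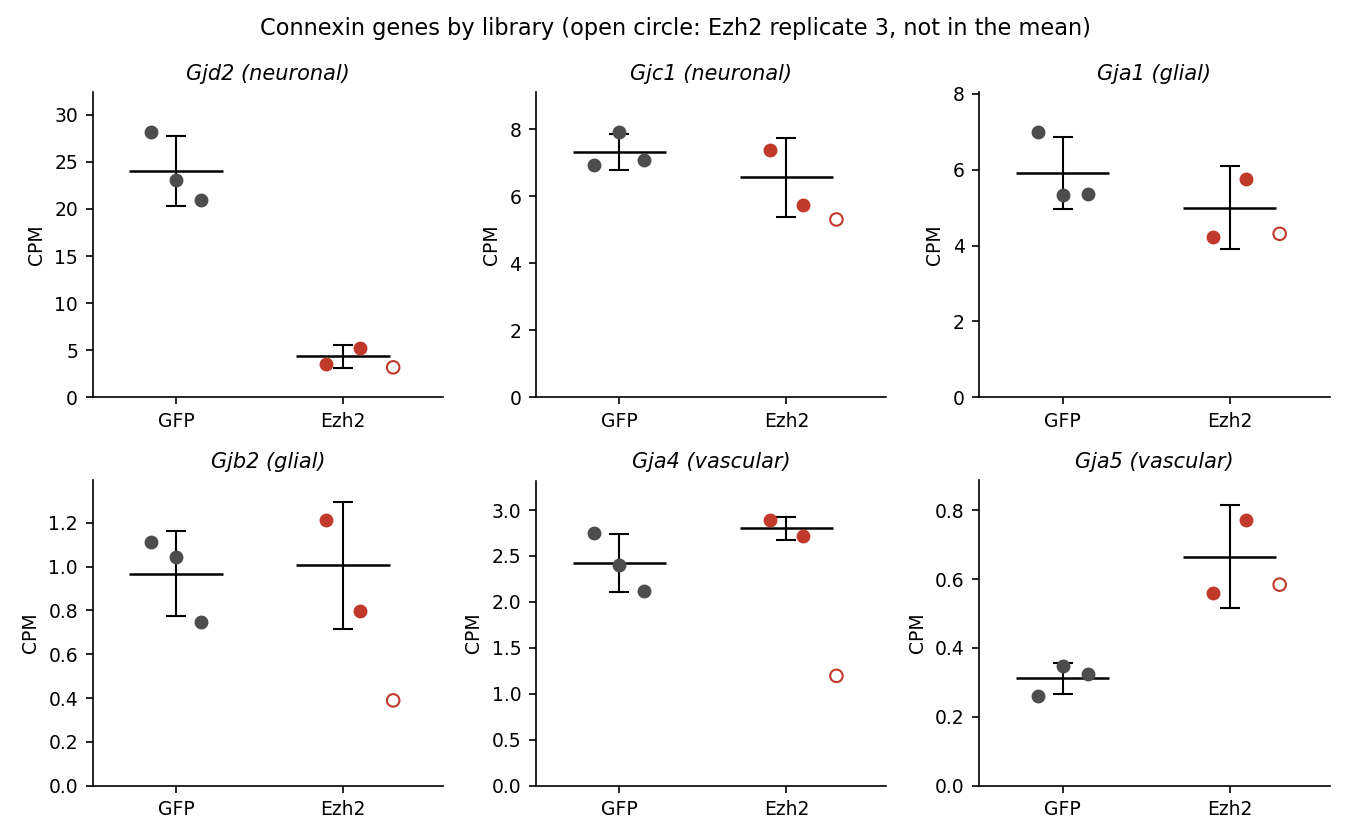
mRNA levels (CPM, vertical axes from 0) of the 6 connexin genes that entered the fit, with each library as a point and bars for the mean ± SD of 3 GFP and 2 Ezh2 libraries. *Gjd2* falls from 24.1 to 4.35 CPM, *Gja5* lies higher in every Ezh2 library at levels under 1 CPM, and the groups overlap for *Gjc1*, *Gja1*, *Gjb2* and *Gja4*.

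*Gjd2* lies on chromosome 2 (114009601 to 114013619, minus strand, GRCm38). The stretch from 250 bases before to 50 bases after its start, taken from RefSeq on GRCm38.p6, is shown with that of *Gja1* because the 2 genes differ in both base composition and response. CG dinucleotides, the sites of CpG methylation and the building blocks of CpG islands, are in capitals, and both sequences read 5′ to 3′ along the gene's own strand. The *Gjd2* stretch is chr2:114013570-114013869 (minus strand) and the *Gja1* stretch is chr10:56377050-56377349 (plus strand).
Gjd2: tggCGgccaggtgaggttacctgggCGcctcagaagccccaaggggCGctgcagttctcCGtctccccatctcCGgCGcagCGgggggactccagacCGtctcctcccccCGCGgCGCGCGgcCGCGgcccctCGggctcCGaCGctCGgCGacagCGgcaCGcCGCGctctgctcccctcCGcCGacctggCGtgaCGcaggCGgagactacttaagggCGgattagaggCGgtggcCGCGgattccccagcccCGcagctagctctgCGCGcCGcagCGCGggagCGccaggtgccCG
Gja1: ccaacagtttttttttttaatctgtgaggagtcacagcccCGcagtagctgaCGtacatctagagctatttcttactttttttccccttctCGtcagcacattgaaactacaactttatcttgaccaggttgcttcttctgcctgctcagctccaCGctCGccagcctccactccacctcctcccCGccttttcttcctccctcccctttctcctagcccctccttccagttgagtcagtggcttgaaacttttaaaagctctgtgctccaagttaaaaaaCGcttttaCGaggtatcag
The *Gjd2* promoter held 41 CG and was 75.0% G or C. Only 3.46% of the 32851 mouse promoters of this length held as many, and their median was 7. The *Gja1* promoter held 8 and was 47.7% G or C. Promoters were found for 8 of the 9 connexin genes, and the other 6 held between 2 (*Gja10*) and 27 (*Gjb2*). *Gjb2*, at 70.0% G or C, had a log2 fold change of 0.06 ± 0.40 with 5 libraries. The pair shown was picked for its differences, and whether CG content goes with the response was not tested. *Gja1* also held the letters TGANTCA, which AP-1 factors bind, as TGAGTCA beginning 19 bases before the start. This motif (a palindrome, so both strands were covered) occurred in 7.81% of all promoters and in no other promoter of the 8. These matches describe sequence and are not evidence of binding.

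Strand use in counting is not known here, and the exons of *Gjd2* overlap those of the antisense gene *A530058N18Rik*, which carries a pair of identifiers, over 57 bases (2.0% of the *Gjd2* exon length) for one and 18 bases for the other. That gene had 57, 93 and 70 counts in GFP and 46, 23 and 24 in Ezh2 under one identifier. Under the other it had 0 in every library. Which identifier has the longer overlap is not stated here. The *A530058N18Rik* counts were below those of *Gjd2* in every library, and closest to them in Ezh2 replicate 1 (46 against 112). How far antisense reads contribute to the *Gjd2* counts was not tested.

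*Gjc1*, which encodes connexin45, the usual partner of connexin36 on the cone bipolar side of AII junctions, had 6.93, 7.93 and 7.09 CPM in GFP and 7.39, 5.74 and 5.31 CPM in Ezh2. The groups overlapped through Ezh2 replicate 1, and the log2 fold change was -0.15 ± 0.16 with 5 libraries and -0.22 ± 0.16 with 6. *Gja10*, which encodes a connexin of horizontal cells, had 0, 0 and 8 counts in GFP and 0 in each Ezh2 library. It did not enter the fit, and no difference was detectable at this depth.

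Among glial connexins, *Gja1*, which encodes connexin43 of astrocytes, had 7.0, 5.34 and 5.37 CPM in GFP and 4.22, 5.77 and 4.31 CPM in Ezh2. Here too the groups overlapped, with a log2 fold change of -0.23 ± 0.20 (5 libraries) and -0.27 ± 0.20 (6 libraries). *Gjb2*, which encodes connexin26, ranged from 0.748 to 1.11 CPM in GFP and was 1.21, 0.799 and 0.389 CPM in Ezh2. Its log2 fold change was 0.06 ± 0.40 with 5 libraries and -0.25 ± 0.42 with 6, so its sign depended on Ezh2 replicate 3. *Gjb6*, the astrocytic connexin30 gene, had at most 3 counts in any library, and *Gjc3*, a connexin gene of myelinating glia, had 0 counts in all 6. Neither entered the fit. Markers of oligodendrocytes and Schwann cells nevertheless summed to between 174.8 and 197.2 CPM, mostly through *Cnp* (133.9 CPM in GFP), while *Mog* and *Mobp* were at or under the floor of 3 counts in every library.

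The vascular connexins *Gja4* and *Gja5* encode connexin37 and connexin40 of arterial endothelium. *Gja4* had 2.75, 2.40 and 2.11 CPM in GFP and 2.89, 2.71 and 1.195 CPM in Ezh2, and its log2 fold change moved from 0.22 ± 0.24 with 5 libraries to -0.07 ± 0.33 with 6. *Gja5* had only 8, 11 and 10 counts in GFP and 18, 27 and 21 in Ezh2. All 3 Ezh2 libraries were higher, at 0.559, 0.771 and 0.584 CPM against 0.262 to 0.348 CPM. The log2 fold change was 1.10 ± 0.54 with 5 libraries and 1.06 ± 0.38 with 6. No gene of the arterial endothelial marker list was called, and the list summed to between 76.1 and 80.6 CPM in GFP and between 61.7 and 71.3 CPM in Ezh2. Most of that sum was *Efnb2* (60.3 CPM in GFP), which other cells express as well. Exons of *Gja5* overlap the antisense gene *Gpr89* over 165 bases, and *Gpr89* had 39.4 to 43.6 CPM in GFP and 41.6 to 45.9 CPM in Ezh2. How far *Gpr89* reads contribute to the small *Gja5* counts was not tested.

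Of the 9 connexin genes, 6 entered the fit, and *Gjd2* alone passed the call rule (an adjusted p under 0.05 by edgeR and a fold change above 1.5) with either 5 or 6 libraries. Over all genes, 3.73% of the 20241 tested were called with 5 libraries, 2.45% as higher and 1.27% as lower. With 6 libraries, 2.41% of 19732 were called, 1.6% as higher and 0.811% as lower. Because the genes were chosen on this contrast, nothing is read from the count. The groups also did not overlap for *Gjd2* and *Gja5* in both comparisons, which held for 44.9% of all genes tested with 5 libraries and 34.2% with 6. The median log2 fold change of the 6 genes was -0.04 with 5 libraries and -0.23 with 6, against -0.01 and 0.01 over all genes tested.

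**Figure D2:**
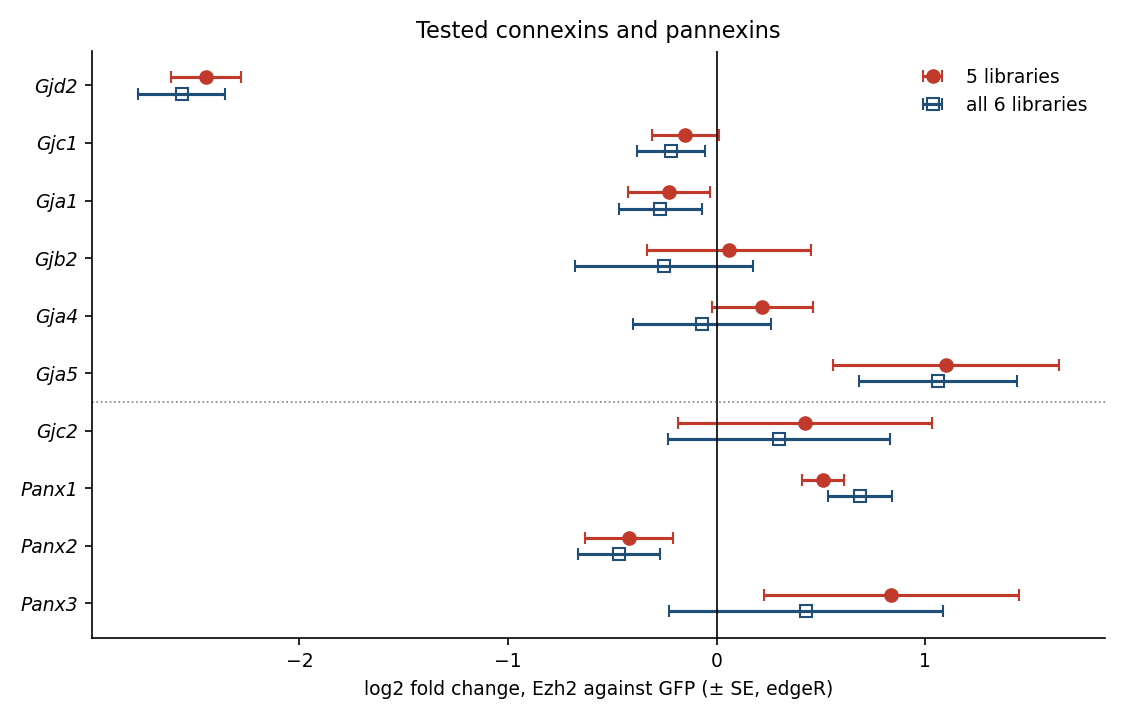
Log2 fold changes of Ezh2 against GFP (horizontal axis) with SE bars for the 6 tested connexin genes examined here (above the dotted line) and 4 related genes (below it), with 5 libraries (filled circles) and all 6 (open squares). *Gjd2* stands at -2.45 and -2.56, and *Gjb2* and *Gja4* change sign between the 2 sets.

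Levels of different genes were compared per length, as CPM per kb of merged annotated exon. Merged length covers every annotated transcript of a gene, and which transcripts were in use was not tested, so the order depends on the annotation. *Gja1* has 10257 bases of merged exon and *Gja4* 1685. In GFP, *Gja1* was thus above *Gja4* in CPM (5.90 against 2.42) but below it per length. In GFP, *Gjd2* (8.35 ± 1.30 CPM per kb, SD, n = 3) was followed by *Gjc1* (1.46 ± 0.11) and *Gja4* (1.44 ± 0.19), which did not differ beyond their spread. *Gja1* (0.576 ± 0.093) and *Gjb2* (0.402 ± 0.080) came next, then *Gja5* (0.0542 ± 0.0078). In the 2 Ezh2 libraries kept, *Gjd2* (1.51 ± 0.43) did not differ beyond its spread from *Gja4* (1.66 ± 0.07) or from *Gjc1* (1.31 ± 0.23), while both *Gja4* values lay above both *Gjc1* values. *Gja1* (0.487 ± 0.106) and *Gjb2* (0.418 ± 0.121) did not differ beyond their spread, and *Gja5* was at 0.116 ± 0.026. The ratio of *Gjd2* to *Gjc1* per length was 7.07, 5.05 and 5.12 in GFP and 0.818, 1.58 and 1.04 in Ezh2.

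The 20 mouse connexin genes together gave 14.5, 12.5 and 11.9 CPM per kb in GFP and 5.64, 6.02 and 3.85 CPM per kb in Ezh2. *Gjd2* made up 67.4%, 64.2% and 61.1% of this sum in GFP and 21.4%, 30.1% and 28.6% in Ezh2. Without *Gjd2*, the sums were 4.74, 4.46 and 4.62 CPM per kb in GFP, 4.43 and 4.21 in Ezh2 replicates 1 and 2, and 2.75 in Ezh2 replicate 3. The lower total in the 2 libraries kept was thus nearly all *Gjd2*, and in Ezh2 replicate 3 other connexins were lower as well. The shares of connexin classes depend on the same annotated lengths. Neuronal connexins held 74.0% to 76.9% of the sum in GFP and 47.6%, 49.2% and 56.2% in Ezh2. The glial share went from 7.32% to 7.88% in GFP to 16.6%, 14.9% and 15.1% in Ezh2, and the vascular share from 11.03% to 11.9% to 32.1%, 29.0% and 21.1%. In absolute terms glial connexins were at 1.145, 0.954 and 0.871 CPM per kb in GFP and 0.938, 0.894 and 0.582 in Ezh2. Vascular connexins were at 1.68, 1.49 and 1.31 CPM per kb in GFP, at 1.81 and 1.74 in Ezh2 replicates 1 and 2, above all GFP libraries, and at 0.811 in Ezh2 replicate 3, below them.

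**Figure D3:**
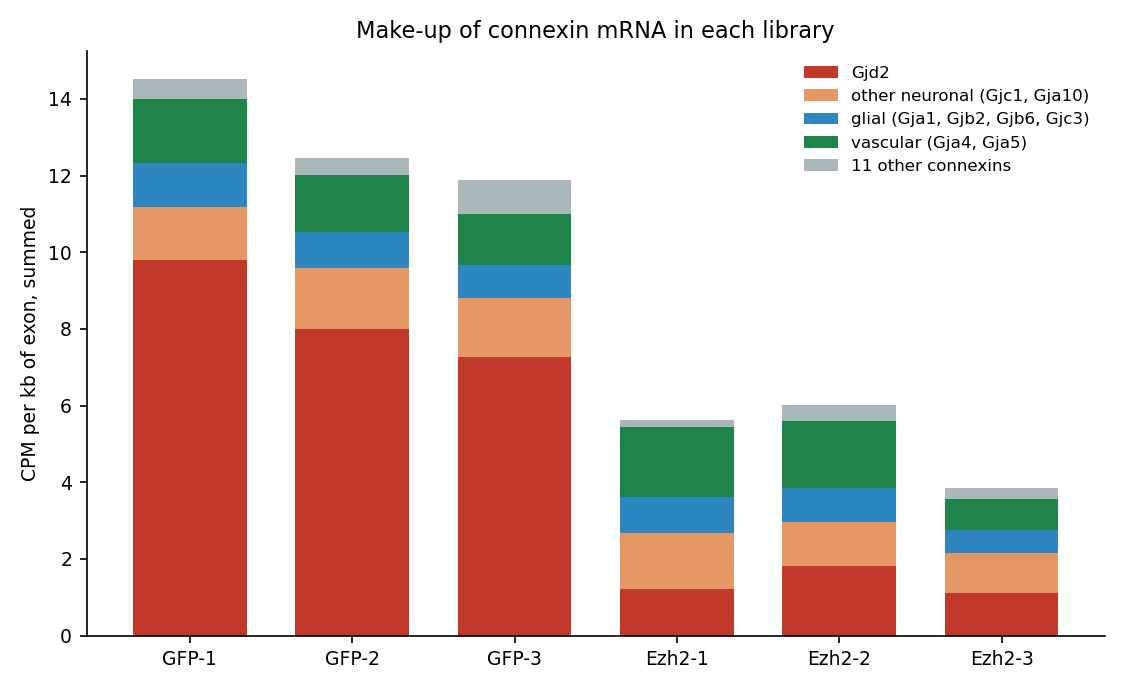
Summed connexin mRNA (CPM per kb of exon, vertical axis from 0) in each of the 6 libraries, divided into *Gjd2*, other neuronal, glial, vascular and 11 other connexins. The *Gjd2* part shrinks from 7.27 to 9.79 CPM per kb in GFP to 1.10 to 1.81 CPM per kb in Ezh2.

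*Gjb2* and *Gjb6* are neighbours, 18601 bases apart on chromosome 14, and *Gja3* lies next to *Gjb2*. Of the 3, *Gjb2* alone was expressed above the floor in every library, as *Gja3* had 4, 1 and 0 counts in GFP and 0 in each Ezh2 library. Among the 14 other connexins and pannexins, 5 were tested and 1 was called, as lower.

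Pannexins form channels that open to the outside of the cell and do not build gap junctions in most settings. *Panx1* had 15.6, 15.4 and 15.1 CPM in GFP and 23.97, 19.6 and 28.6 CPM in Ezh2, with all Ezh2 libraries higher. Its log2 fold change of 0.51 ± 0.10 (adjusted p = 0.00183 by edgeR) did not reach the fold threshold with 5 libraries and did with 6, at 0.69 (adjusted p = 0.0436). *Panx2* had 5.43, 4.55 and 4.46 CPM in GFP and 4.16, 2.997 and 3.03 CPM in Ezh2, with a log2 fold change of -0.42 ± 0.21 (adjusted p = 0.205). The median over the 5 tested genes of this list was 0.42.

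Electrical synapses need scaffold and adhesion proteins beside connexins, such as ZO-1 (*Tjp1*), which binds the tail of connexin36, and the kinase CaMKII, which phosphorylates it. All 25 listed partners were tested and 0 were called, by edgeR, DESeq2 or limma. In edgeR, 14 had an unadjusted p under 0.05, a rule for which the share over all genes is not given here. An adjusted p under 0.05 was reached by 8, and by 3330 of all 20241 genes tested. All 8 were lower, by log2 fold changes between -0.41 and -0.21, which is under the fold threshold. The list spanned -0.41 to 0.16 with a median of -0.13, against -0.01 over all genes tested. *Cdh2*, which encodes N-cadherin of adherens junctions, had 692.2, 661.7 and 688.5 CPM in GFP and 549.7, 559.1 and 455.3 CPM in Ezh2, a log2 fold change of -0.28 ± 0.05 (adjusted p = 0.000492). *Ctnnb1*, which encodes β-catenin, had 498.1, 483.3 and 491.9 CPM in GFP and 508.0, 566.3 and 472.4 CPM in Ezh2, a log2 fold change of 0.14 ± 0.05 with 5 libraries (adjusted p = 0.0921), and the groups overlapped through Ezh2 replicate 3 alone. *Tjp1*, named after its values were seen because of its role, had a log2 fold change of -0.105 ± 0.05. No partner came near the size of the *Gjd2* difference. *Gjd2* was chosen with that difference known, so nothing is read from the contrast.

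Of 25 genes that modulate coupling, 21 were tested, 1 was called higher and 1 lower, and the median log2 fold change was -0.09. *Drd2*, the dopamine receptor that lowers cAMP, had 12.3, 10.7 and 10.5 CPM in GFP and 5.03, 4.995 and 3.14 CPM in Ezh2. Every Ezh2 library lay below every GFP library, and the log2 fold change was -1.14 ± 0.14 (adjusted p = 4.45e-05 by edgeR with 5 libraries, 0.0118 with 6). *Adcy8*, a calcium-stimulated adenylyl cyclase that makes cAMP, had 1.47, 1.11 and 0.781 CPM in GFP and 2.89, 1.94 and 1.84 CPM in Ezh2. Its log2 fold change was 1.11 ± 0.33 (adjusted p = 0.0304), and the call was lost with 6 libraries (adjusted p = 0.103) and without GFP replicate 2, GFP replicate 3 or Ezh2 replicate 1. Of the genes for dopamine synthesis and transport, *Slc6a3* and *Slc18a2* were at or under the floor in every library, and *Th* and *Ddc* did not enter the fit.

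The genes whose levels followed *Gjd2* most closely over the 6 libraries were found by the root mean square distance between log2 CPM values, each taken relative to the gene's GFP mean. Among 13769 genes with a mean of at least 100 counts, the nearest were *Kcnj5* (distance 0.26), *Scn1a* (0.27), *Epha8* (0.29), *Tfap2b* (0.30) and *Crhbp* (0.35). They encode a G protein-gated potassium channel, a voltage-gated sodium channel, an ephrin receptor, a transcription factor of amacrine and horizontal cells, and a binding protein of corticotropin-releasing hormone. Relative to the GFP mean, *Gjd2* lay at -2.76, -2.18 and -2.89 in the Ezh2 libraries and *Kcnj5* at -2.22, -2.19 and -2.72. *Scn1a* lay lower, at -2.99, -2.54 and -3.33, and *Tfap2b* at -3.33, -2.27 and -3.33. These genes were selected for their likeness, which the group difference dominates. The *Epha8* promoter held 56 CG, more than that of *Gjd2*, and the promoters of the other 4 held between 5 and 10.

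**Figure D4:**
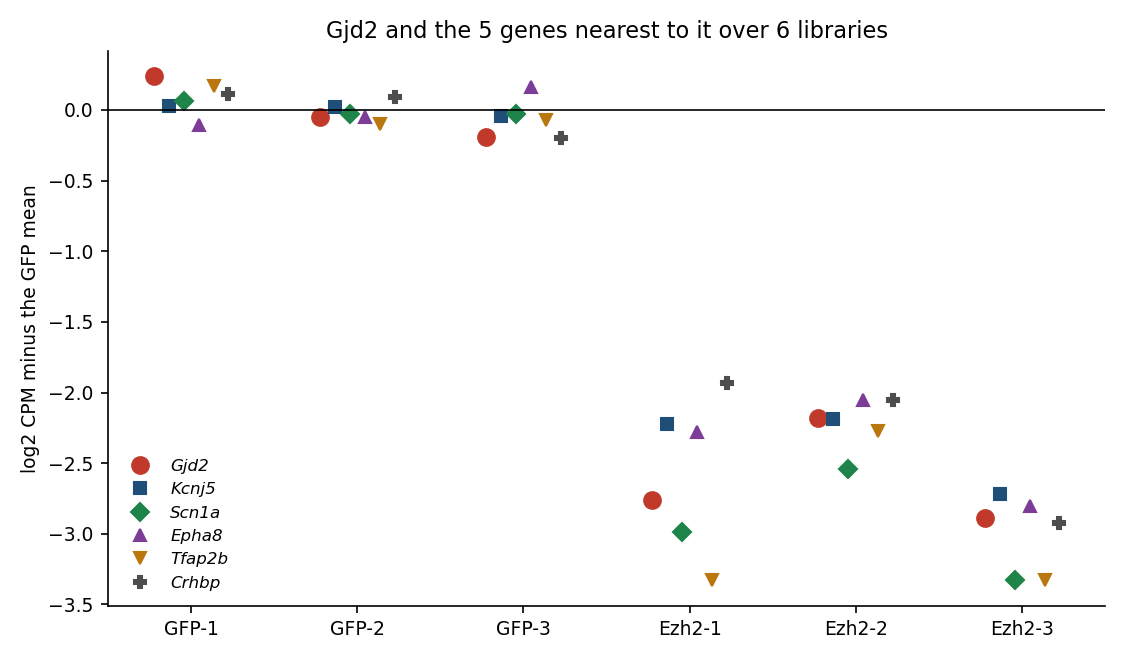
Log2 CPM minus the gene's own GFP mean (vertical axis) for *Gjd2* and the 5 genes nearest to it in each of the 6 libraries (horizontal axis). All 6 genes lie near 0 in the GFP libraries and between -1.93 and -3.33 in the Ezh2 libraries.

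Since *Gjd2* is used by AII amacrine cells, cones and some other neurons, the levels of cell type markers are given beside it. The AII amacrine list had 7 of 7 genes tested and 1 called, *Dner*, which was lower at 20.9, 18.5 and 20.9 CPM in GFP and 8.39, 8.39 and 6.56 CPM in Ezh2 (log2 fold change -1.25 ± 0.11, adjusted p = 9.66e-07 by edgeR). The median of the list was -0.25, and its summed level went from 1153 to 1193 CPM in GFP to 781.8 to 968.9 CPM in Ezh2. Much of that sum is *Car2* (576.6 CPM in GFP), which Müller glia also express. The amacrine list summed to 1141 to 1181 CPM and 847.5 to 1001 CPM. Among 11 tested amacrine genes, *Tfap2b* was called lower (-2.72 ± 0.24, adjusted p = 1.41e-06) and *Tfap2c* higher (2.93 ± 0.39, adjusted p = 7.54e-05). Counting all genes with an adjusted p under 0.05 whatever the fold, 6 of the 7 AII genes were lower, by log2 fold changes between -1.25 and -0.22, and 5 amacrine genes were lower and 1 higher. Over all genes, 3330 of the 20241 tested passed that rule. The lower *Gjd2* thus came with lower levels of both lists. Whether the amacrine share of the sorted cells contributed to the *Gjd2* difference was not tested.

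Markers of cones, which are also coupled through connexin36, moved the other way. All 8 cone markers were called higher with 5 libraries and 2 with 6, the median log2 fold change was 1.19, and the list summed to 28.8 to 29.0 CPM in GFP and 38.8 to 66.7 CPM in Ezh2. Its most abundant gene, *Gngt2*, had a log2 fold change of 0.87 ± 0.12, *Opn1sw*, the short-wave opsin gene, 1.55 ± 0.15, *Arr3* 1.16 ± 0.23 and *Gnat2* 0.97 ± 0.21. Rod markers had a median of 0.52, with 3 of 8 called higher, among them *Pde6a* (0.69 ± 0.08) and *Cnga1* (0.69 ± 0.14), and 0 with 6 libraries, and they summed to 400.6 to 471.2 CPM in GFP, 713.1 to 756.1 CPM in the 2 Ezh2 libraries kept and 422.8 CPM in Ezh2 replicate 3. Bipolar cells, the partners of AII cells, showed no called gene among 11 in edgeR, where 3 had an unadjusted p under 0.05. The bipolar median was -0.05, and the list summed to 655.3 to 662.3 CPM in GFP and 535.3 to 657.3 CPM in Ezh2. In the horizontal cell list, *Calb1* was called lower (-2.73 ± 0.35, adjusted p = 6.36e-05) among 4 tested genes, while *Tpm3*, the most abundant, was at 0.36 ± 0.05. The median was -0.20, and the list summed to 313.4 to 317.3 CPM in GFP and 327.3 to 403.6 CPM in Ezh2. *Tpm3* had 161.9 to 165.6 CPM in GFP and 202.4 to 304.7 CPM in Ezh2, and the other 3 tested genes had negative log2 fold changes. RGC markers had a median of 0.23, with *Nefh* called higher (0.72 ± 0.21, adjusted p = 0.0291) and *Thy1* at 0.22 ± 0.06.

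For the glial connexins, the Müller list had a median of -0.23, with *Glul*, its most abundant gene, at -0.48 ± 0.04 and *Apoe* called higher at 0.72 ± 0.05. The astrocyte list had a median of -0.07, with *Slc1a2* at -0.36 ± 0.05 and *Gfap*, a marker of reactive glia, called higher at 1.01 ± 0.07. For the vascular connexins, 0 of 8 endothelial genes were called, with *Kdr* at -0.12 ± 0.04, and 0 of 6 tested arterial genes, with *Efnb2* at -0.20 ± 0.08. Of 8 mural genes, *Kcnj8* (0.68 ± 0.13) and *Abcc9* (0.69 ± 0.08) were called higher, and *Pdgfrb* was at -0.05 ± 0.06. Immune markers were higher in part, with *Cd68* (1.35 ± 0.09) and *Cd8a* (1.38 ± 0.08) called and *Csf1r* (0.26 ± 0.05) and *Cd4* (0.13 ± 0.06) not. The medians were 0.00 for endothelial, -0.28 for arterial, 0.18 for mural, 0.35 for myeloid and 0.34 for T cell markers. Summed levels went from 3215 to 3381 CPM in GFP to 2336 to 2943 CPM in Ezh2 for endothelial markers. That sum was made almost wholly of *Kdr* and *Flt1* (2359 and 916.9 CPM in GFP, the latter named after its values were seen), so its fall describes that pair. The other endothelial markers had means of at most 14.7 CPM in GFP. Their log2 fold changes lay between -0.10 and 0.30 with 5 libraries and between -0.29 and 0.145 with 6. Mural markers summed to 435.1 to 507.7 CPM in GFP and 413.1 to 506.5 CPM in Ezh2. Astrocyte markers summed to 2078 to 2207 CPM and 1879 to 2391 CPM, and myeloid markers to 949.6 to 1100 CPM and 1307 to 1338 CPM. T cell markers summed to 319.0 to 345.5 CPM in GFP, 416.2 to 441.3 CPM in the 2 Ezh2 libraries kept and 714.6 CPM in Ezh2 replicate 3. The part of these cell populations in the connexin differences was not tested.

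**Figure D5:**
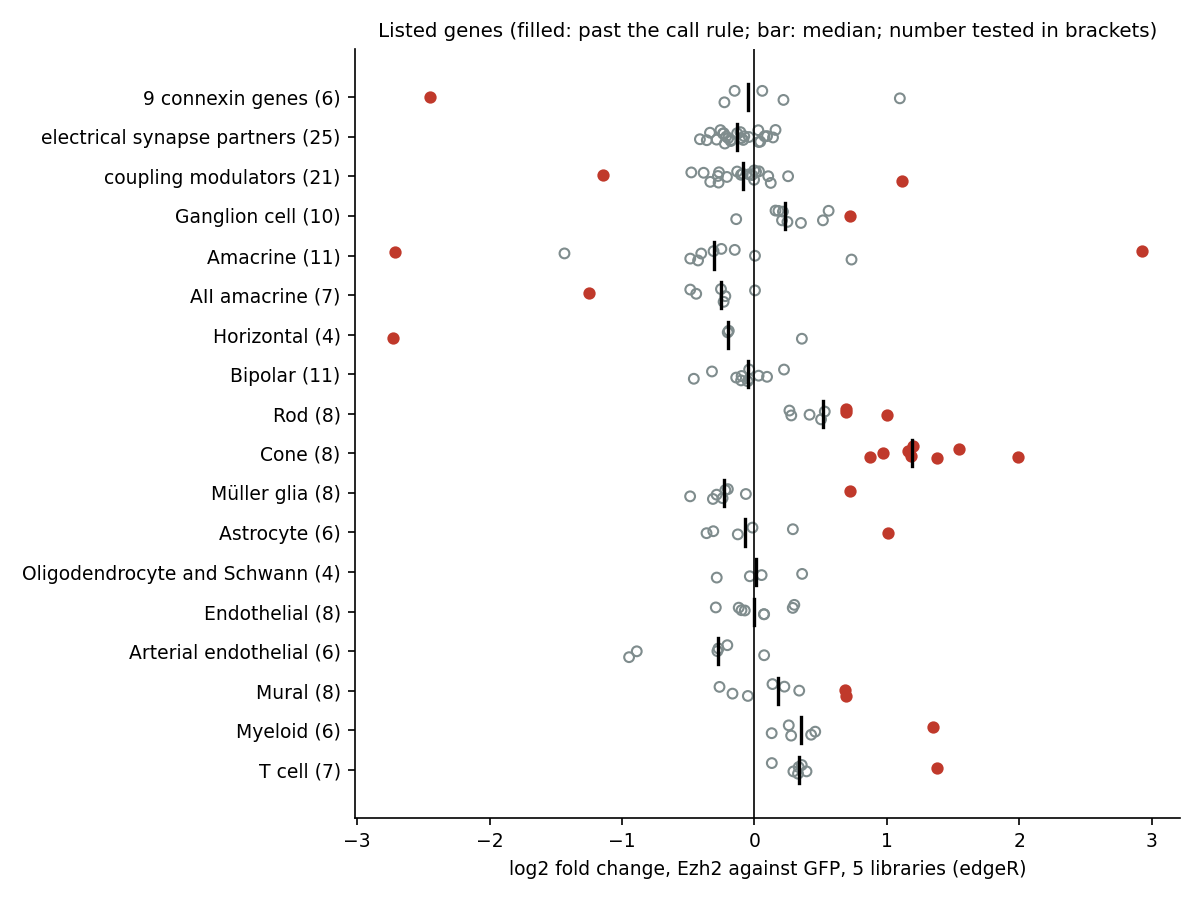
Log2 fold changes of Ezh2 against GFP with 5 libraries (horizontal axis) for the tested genes of each list (rows, number tested in brackets), with called genes filled and the list median as a bar. *Gjd2*, chosen with its difference known, lies at -2.45. The median of the 25 synapse partners is -0.13 and that of the 8 cone markers is 1.19.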

How the data were processed

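Retinal cells of C57BL/6J mice were stained for CD90.2, encoded by *Thy1*, and sorted by FACS without dye-positive dead cells, and total RNA was made into stranded libraries. The table deposited by the authors holds, for 6 libraries, unnormalized read counts of each Ensembl gene. The submitters' processing notes name STAR 2.7.0d and GRCm38. The counting program, annotation release and strand setting are not given in the sources used here. Of 55573 identifiers, 55480 matched GENCODE M21, which supplied symbols, coordinates and merged exon lengths. CPM (counts scaled to the library total) were computed from these counts.

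All 3 GFP libraries were compared with Ezh2 replicates 1 and 2. Ezh2 replicate 3 is taken to be the library that the study excluded, an inference from its heatmap columns, which name the other 5. In edgeR 4.0.16 (R 4.3.3), low genes were removed by filterByExpr, libraries were scaled by TMM, and a model of group alone was fitted with glmQLFit at its default settings and tested with glmQLFTest (two-sided). Benjamini-Hochberg adjustment covered every gene tested. A called gene had a fold change above 1.5 together with an adjusted p under 0.05. The fit was tested on simulated data. DESeq2 1.42.0 and limma 3.58.1 were among the alternatives. A fit with robust dispersions was chosen after seeing the data, because it was found to account for a different number of calls in an earlier analysis of these counts, and the default was kept as the main fit.

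The connexin genes and all lists were chosen with earlier results of these data known. By rule, the text names all 9 connexin genes, the called genes of each other list (the 2 of highest mean count where fewer than 2 were called), the marker gene of highest mean count and up to 4 called markers per list, *Ezh2*, and the 5 genes nearest to *Gjd2*. Some results that the rule would name are not reported here. Same-numbered libraries did not deviate together (correlations -0.0051, -0.0197 and -0.0102 for replicates 1, 2 and 3), so numbers did not pair the samples. The reads carry no molecular identifiers, and the floors cover counting error only. The SD and SE values also hold the variation between these libraries.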

Additional observations from a re-analysis of the deposited data

Results flagged for a closer look

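*Adora2a*, an adenosine receptor gene listed among the modulators of coupling, was singled out because of a signal in the library that the main comparison did not use. It stood at 22.02 CPM in Ezh2 replicate 3, against 9.23 to 10.8 CPM in the GFP libraries and 10.4 and 9.51 CPM in Ezh2 replicates 1 and 2. T cell markers were also highest in Ezh2 replicate 3, at a sum of 714.6 CPM against 416.2 to 441.3 CPM in replicates 1 and 2. Whether the 2 are related was not tested.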

How the results depend on the processing

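The log2 fold change of *Gjd2* kept its direction and its call under all 15 alternatives fitted, between -2.18 and -2.79 when 1 of the 5 libraries was left out, and *Gjd2* remained the only 1 of the 9 connexin genes past the call rule. The number of called genes was 754 with 5 libraries, 476 with all 6, 274 with all 6 and a replicate block, 3330 by adjusted p alone, and 597 to 755 with 1 library left out. Robust dispersions, tried after seeing the data, gave 770. Among other connexins and pannexins, where 1 gene was called, the count was 2 with all 6 libraries, without a filter and by adjusted p alone, and 0 with DESeq2, with a mean of at least 50 counts and with the block over 6 libraries. It ranged from 0 to 1 with 1 library left out. Synapse partners called rose from 0 to 8 by adjusted p alone. Modulators called went from 2 to 1 with all 6 libraries and with the block over 5 or 6 libraries, to 7 by adjusted p alone, and between 1 and 2 with 1 library left out. *Adcy8*, at 1.11, was no longer called with the block, at 0.90 over 5 libraries and 1.04 over 6. The cause of these shifts was not tested. The samples share only a number, and the block gave -2.54 for *Gjd2* with 5 libraries. Levels under about 1 CPM, such as those of *Gja5*, rest on few counts.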
